A study of Mus musculus with 39 samples.

Results

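Subcutaneous white fat of mice on the low-fat control diet (LFC) was compared between a late and an early stretch of one feeding study, to see which transcripts of control tissue moved with time. The late group held the 6 LFC arrays of Weeks 3, 6, 9, 12, 15 and 18, and the early group held the 4 LFC arrays of Day 6, Day 10, Day 14 and Week 0. These 10 arrays were picked by diet and time point from the 39 arrays of the series. All mice were C57BL/6J, were weaned and put on their diets at 3 to 4 weeks of age and ate ad libitum under a 12:12 light cycle. LFC drew 10% of its calories from fat. The high-fat diet with added sucrose (HFC), whose 4 early and 6 late arrays of the same time points are used here only for comparison, drew 60%. The labels name no transgene or deletion in any mouse, and the formulation fed to other groups of the series was not part of LFC or HFC. A late array came from older mice than an early array, so age and time on the diet cannot be told apart.

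Study day was taken as the day, or as 14 days plus 7 days for each week, so that Day 14 and Week 0 share study day 14 and Week 18 is study day 140. Each time point had 1 array. Whether an array held RNA of 1 animal or of several was not stated, and the series' design text speaks of 3 biological replicates for a diet while each diet has 1 array per time point. The p values therefore measure the spread between arrays. Time and scan day were confounded: every LFC array had its own scan day, and the arrays of Day 6, Day 10 and Day 14 were scanned last, 215 to 252 days after the first LFC array. Week 0 was the exception, scanned at day 53 among the late arrays, which ran from day 0 to day 155. Scan day and period cannot be told apart from these arrays. The 75th percentile of spot intensity ran from 438 to 1003 scanner units on early arrays and from 108 to 1045 on late arrays, with the lowest values at Week 9 (204) and Week 18 (108). Fat cell transcripts were high on the 10 LFC arrays, with a mean level of 21 mature adipocyte genes between 2.05 and 5.12. The scale is log2, with 0 at the array's 75th percentile. The fat depot is that of the label and was not tested from transcripts. Skeletal muscle transcripts were high on the Day 6 array, with a mean level of 4.03, while the other LFC arrays lay between −2.95 and 0.99.

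White fat contains adipocytes together with vessels, progenitors and immune cells. Antibodies are made by plasma cells, which derive from B lymphocytes, and an antibody is built of heavy and light chains. The variable part of each chain is encoded by one of many related gene segments, and the joining chain links antibodies into the multimers of IgM and IgA. In young animals fat grows both by new cells and by larger cells, and imprinted genes are known for their high expression during such growth.

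The probes that carried most of the late rise lie in antibody genes. The probes of 6 of the most raised genes are printed so that their relatedness can be seen. They are array probes of 60 bases, and the capitals mark TATTACTGT, a run of letters common at the end of the last framework of antibody variable segments, just before the most variable loop.
LOC100046894 (kappa): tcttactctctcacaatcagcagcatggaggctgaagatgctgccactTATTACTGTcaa
ENSMUST00000103351 (kappa): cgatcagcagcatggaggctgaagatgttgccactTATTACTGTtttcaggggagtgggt
ENSMUST00000103397 (kappa): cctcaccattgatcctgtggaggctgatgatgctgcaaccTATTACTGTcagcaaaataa
LOC677563 (heavy): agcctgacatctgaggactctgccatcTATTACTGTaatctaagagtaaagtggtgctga
Igk-V21-4 (kappa): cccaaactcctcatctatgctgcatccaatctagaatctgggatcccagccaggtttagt
Ighv1-77 (heavy): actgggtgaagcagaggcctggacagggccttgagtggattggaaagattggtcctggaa
Searched on the printed strand only, the run stood in 11 of the 85 immunoglobulin probes tested (12.9%), in 7 of the 50 whose genes passed the test (14.0%) and in 34 of all 40628 probes (0.0837%). The probes of LOC100046894 and ENSMUST00000103351 share 25 bases. Among the 50, 24 probes share a run of at least 20 bases with another of them, and the shared runs among all 85 join them into 56 groups, of which 31 hold the 50, so related rows can read the same transcripts and are not separate measurements.

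Antibody transcripts were far higher in late than in early LFC tissue. Of 20680 genes tested, 67 passed an adjusted p of 0.05 (0.324%), of which 65 rose (0.314%) and 2 fell (0.00967%). By their descriptions, 50 of the 65 are immunoglobulin genes. The other 15 that rose include Cxcl13, Inmt and Sult1e1, and the 2 that fell are Adamts17 and Gm12387. At an unadjusted p under 0.05 there were 904 genes (4.37%), with 511 higher (2.47%) and 393 lower (1.9%) in late tissue. All p values are from limma with Benjamini-Hochberg adjustment over all genes tested. Levels are log2 intensities relative to the 75th percentile of the array, so that 0 is that percentile, and differences are late minus early on that log2 scale.

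Igj, the joining chain, had levels of −1.26 at Day 6, 0.07 at Day 10, −0.65 at Day 14 and −1.82 at Week 0. Its late levels were 4.12 at Week 3, 2.90 at Week 6, 4.19 at Week 9, 3.87 at Week 12, 4.65 at Week 15 and 2.90 at Week 18. Every late array stood above every early array, by a gap wider than the range within the early group, and the rise of 4.69 ± 0.485 (SE, 4 against 6 arrays) equalled 25.7-fold with an adjusted p of 0.015. Igh, a heavy chain of the J558 family, lay at −0.53, 1.68, 1.13 and 1.34 on the early arrays in the same order. It lay at 5.73, 6.61, 7.37, 6.03, 5.89 and 4.62 on the late arrays, a rise of 5.14 ± 0.573 (SE) or 35.3-fold (adjusted p = 0.015). The largest fitted rise was that of LOC100047788, described as similar to a gamma-2a heavy chain, at 6.78 ± 1.20 (SE, adjusted p = 0.0441). Its early levels spread from −7.87 at Day 6 to 0.16 at Day 10, and its late levels from 2.30 to 3.63. The Day 6 level was below background, so the size of this rise is approximate. In a bulk sample, a larger number of antibody-producing cells and more transcript per cell cannot be told apart.

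**Figure D1:**
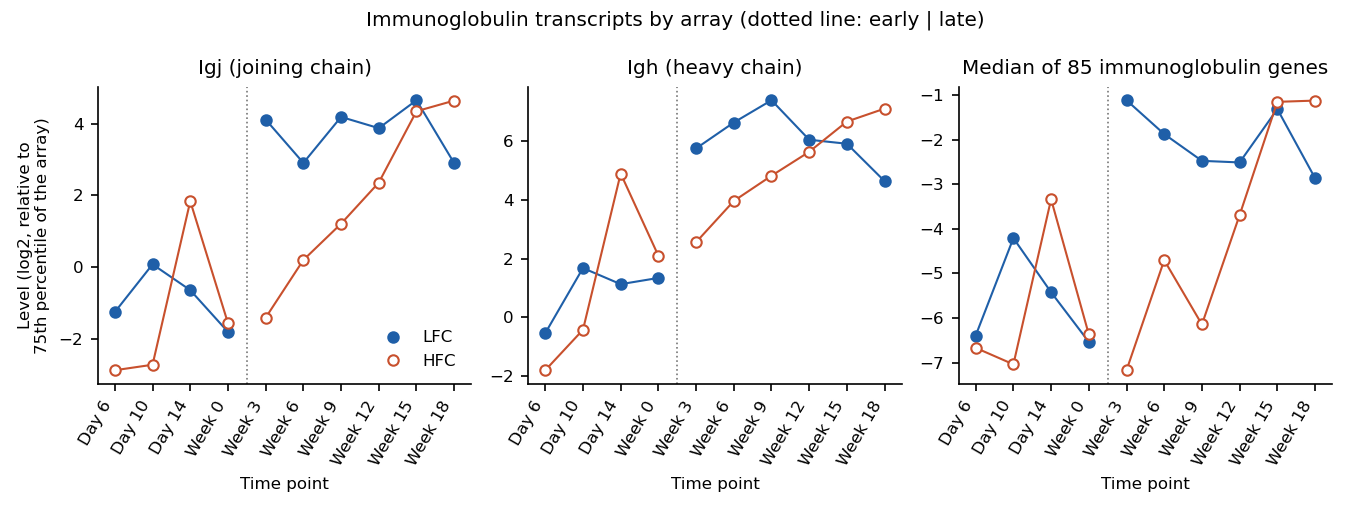
Levels of Igj, of Igh and of the median of 85 immunoglobulin genes on each array by time point, in log2 relative to the 75th percentile of the array, with LFC as filled blue points and HFC as open red points. In LFC the median of the 85 lies between −6.53 and −4.21 on the 4 early arrays and between −2.86 and −1.12 on the 6 late arrays, while the HFC points of the 2 periods overlap, with Day 14 at −3.34 above Weeks 3, 6, 9 and 12.

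The rise spanned both kinds of chain. Of 122 immunoglobulin names on the array, 85 passed the filter on dim values. Their median difference was 3.76, against −0.01 over all 20680 genes, and 82 of 85 were positive. The 49 heavy chain genes had a median of 3.62 and 29 of them passed, and the 33 kappa or light chain genes had a median of 3.94 with 19 passing. The remaining 3 genes are Igj, which passed, and 2 whose chain the description does not give, of which 1 passed. For 67 of the 85, all late arrays lay above all early arrays, as they did for 0.841% of all genes. The filter can be passed through the late arrays alone, and a gene that did so had to differ, so these counts over the 85 are a description. Well above background on all 4 early arrays were 25 of the 85, with a median difference of 3.67, 21 with no overlap and 18 that passed. On none of the early arrays were 14 of the 85, and 10 of the 50 that passed were well above background on none of the 4 early arrays. Their rises are therefore bounds, from at least 1.92-fold for LOC676473 to at least 9.69-fold for a kappa variable gene, against the lowest signal well above background.

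Igh-6, the IgM heavy chain, lay between −6.76 and −3.53 on early arrays and between −1.29 and 0.90 on late arrays, a rise of 4.12. Ighg lay between −3.98 and −2.11 early and between −0.64 and 2.29 late, a rise of 3.92. ENSMUST00000103397 rose by 5.46, LOC100046894 by 5.12, Igk-V21-4 by 5.10, ENSMUST00000103351 by 5.05, Ighv1-77 by 4.76, ENSMUST00000103315 by 4.75, LOC677563 by 4.73 and LOC100047053 by 4.59, all with non-overlapping groups and adjusted p from 0.015 to 0.0267. Early levels were partly below background: LOC100046894 was well above it on all 4 early arrays, LOC677563 on 3, Igk-V21-4, ENSMUST00000103351 and Ighv1-77 on 2, and ENSMUST00000103397, ENSMUST00000103315 and LOC100047053 on 1, so the sizes of these rises are approximate. Ighg and Igh-6 were picked after their values were seen. Against study day, 52 of the 85 had a positive slope at an unadjusted p under 0.05, against 2.72% of all genes, and 0 passed. The count of 52 ran from 24 to 74 with each array left out. Weeks 12 to 18 minus Weeks 3 to 9 gave the 85 genes a median of −0.56, with 1 of them at an unadjusted p under 0.05, so no further rise after Week 9 was detected.

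The groups of all 67 genes that passed did not overlap, so leaving out arrays could not turn their sign. The number that passed depended on single arrays and on the background method. It was 0 without Day 14, without Week 0 or without Week 3, 1 without Week 6, 3 without Day 6, 23 without Week 15, 30 without Week 12 and 32 without Week 9. It was 0 with normexp background correction, which adds an offset and compresses dim values, and there the median of the 85 was 1.44. With each array left out in turn, 76 to 79 of the 85 were higher in late tissue at an unadjusted p under 0.05. The median stayed between 3.45 and 4.15. These values are a description too, since 67 of the 85 had groups that did not overlap. Without Week 9 and Week 18, the dimmest arrays, the median was 4.21.

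Other lymphocyte genes stood high on 2 late arrays and not on the rest. The mean level of 23 lymphocyte genes was −4.22, −2.19, −3.21 and −3.94 on the early arrays and 1.45, −2.84, −0.26, −3.71, −2.55 and −3.79 on the late arrays. It was high at Week 3 and Week 9 only, and 1 of the 23, the IgM heavy chain, passed. Ms4a1 (CD20) lay at 5.64 at Week 3 and 1.49 at Week 9, and between −3.37 and −0.23 on the other 8 LFC arrays. Without Week 3 and Week 9 the lymphocyte median became −0.07, from 1.32, while the immunoglobulin median was 3.57 and 76 of 85 genes were at an unadjusted p under 0.05.

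Plasma cell genes, looked up after the rise was seen and so given without a test, were mixed. Derl3, which works in the disposal of misfolded secretory proteins, lay between −5.27 and −3.88 early and between −3.47 and −1.42 late. Tnfrsf13b, a receptor for the B cell survival factor BAFF, was well above background on 0 of 4 early and 3 of 6 late arrays. The other 9 of the 11 genes had overlapping groups. Pou2af1, a coactivator of B cells, had the widest difference, 2.38, with its highest levels at Week 3 (4.81) and Week 9 (3.02), the arrays with the high lymphocyte level. Sdc1, Prdm1, Xbp1, Irf4, Tnfrsf17, Cd38 and Fkbp11 had differences from −0.46 to 0.50. The last of the 11, 2010107H07Rik, had 0.14, and its place among plasma cell genes was not checked. Xbp1, Sdc1 and Cd38 were well above background on all 10 LFC arrays.

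The genes outside the antibodies that rose are named after their values were seen, apart from Sult1e1. Cxcl13, the chemokine that draws B cells into lymphoid tissue, rose by 3.25 ± 0.490 (SE, adjusted p = 0.0228). Its levels were −2.95, −2.34, −2.53 and −1.99 on the early arrays and 1.07, 0.32, −0.13, 1.28, 2.27 and −0.01 on the late arrays. Its highest levels were those of Week 15, Week 12 and Week 3. Inmt, an enzyme that methylates indoles such as tryptamine, lay at −1.90, 0.97, −0.12 and 0.46 early and at 2.46, 4.60, 3.81, 3.23, 3.67 and 3.25 late, a rise of 3.66 ± 0.577 (SE, adjusted p = 0.0294). Sult1e1, the sulfotransferase that inactivates estrogens, lay at −6.54, −4.25, −3.87 and −0.95 early and at 1.27, 5.08, 3.09, 1.68, 2.52 and 0.72 late. Its rise of 6.30 ± 1.05 (SE, adjusted p = 0.0339) rests in part on Day 6, the 1 early array on which it was not well above background. C130026I21Rik rose by 3.27 (adjusted p = 0.0339) and LOC100041903, described as similar to a G-protein coupled receptor, by 2.39 (adjusted p = 0.0267).

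The remaining 10 of the 15 were not counted as immunoglobulin genes by their descriptions. LOC630302 is described as similar to a VH283 protein and AK085738 as an endogenous retroviral transcript, and the other 8 are LOC630322, LOC672450, Gm1418, LOC675735, EG211331, LOC100045341, LOC634049 and LOC631518. Their rises ran from 2.96 for AK085738 to 4.43 for LOC630322. When the genes counted as immunoglobulin were left out of the adjustment for LFC late against early, 0 of the 17 genes not so counted passed. The smallest adjusted p was 0.0881 and 827 genes had an unadjusted p under 0.05.

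**Figure D2:**
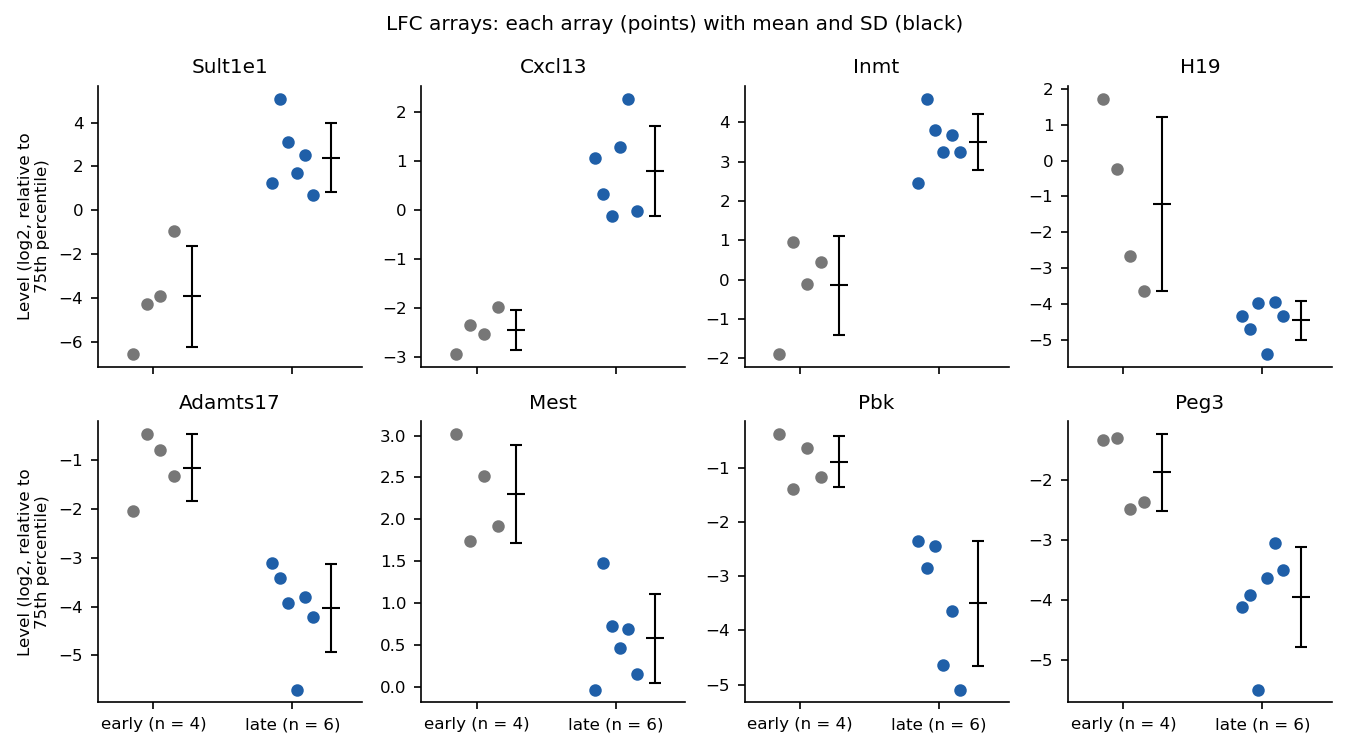
Levels of 8 genes on the 4 early (grey) and 6 late (blue) LFC arrays, in log2 relative to the 75th percentile of the array, with the mean and SD in black and a separate scale for each gene. The early and late points of each gene do not overlap. Sult1e1, Cxcl13, Inmt and Adamts17 passed the test across all genes, and H19, Mest, Pbk and Peg3 did not.

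Few transcripts fell. Adamts17, a secreted metalloprotease of the ADAMTS family, lay at −2.03, −0.47, −0.80 and −1.33 early and at −3.11, −3.42, −3.93, −5.70, −3.80 and −4.20 late, a fall of 2.87 on the log2 scale (SE 0.519, adjusted p = 0.0484). Gm12387, described as similar to PDZ binding kinase, fell by 2.47 on the log2 scale (SE 0.446, adjusted p = 0.0484), from between −3.11 and −1.82 to between −6.10 and −3.87. Adamts17 was well above background on 5 of the 6 late arrays and Gm12387 on 4, so the sizes of both falls are approximate. Neither passed with any 1 of the 10 arrays left out, and with normexp the differences were −1.29 for Adamts17 and −0.52 for Gm12387. The genes next in order did not pass. Ckap2, a microtubule protein of dividing cells, had a difference of −1.95 (adjusted p = 0.0758), and Pbk, the mitotic kinase itself, had −2.61 (adjusted p = 0.174). Aph1a, a subunit of gamma-secretase, had −1.75, Nrk, a kinase, −2.78, Anln, a protein of the cleavage furrow, −1.67, Slc5a11, a sodium-coupled transporter, −1.26, and 4930579E17Rik −1.43, with adjusted p from 0.127 to 0.234. Nrk, Anln and 4930579E17Rik were well above background on only 2 of the 6 late arrays each. Hrc, a calcium-binding protein of muscle sarcoplasmic reticulum, had −1.68 (adjusted p = 0.21) and was highest at Day 6, the array with the high muscle level.

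Imprinted genes of the growth network were mostly lower late, without passing. The median over 19 tested members was −0.74, and it ran from −0.95 to −0.41 with each array left out. Of the 19, 14 were negative and 5 were lower at an unadjusted p under 0.05 (3 to 5 with each array left out). Mest, a marker of expanding fat, lay at 3.02, 1.74, 2.52 and 1.93 early and at −0.03, 1.48, 0.73, 0.46, 0.70 and 0.16 late, a difference of −1.72 (adjusted p = 0.201). Peg3 had a difference of −2.08 (adjusted p = 0.234) and Grb10, an adaptor that restrains insulin signalling, −0.95. H19, a non-coding RNA, descended through the early arrays, at 1.72, −0.24, −2.66 and −3.64, and lay between −5.40 and −3.93 late (difference −3.24, adjusted p = 0.478). The muscle level descended over the same early arrays, at 4.03, 0.99, −1.21 and −2.40, and its part in the H19 values was not tested. The groups of Mest, Peg3, H19 and Grb10 did not overlap, as for 0.45% of all genes in this direction. In HFC the late minus early difference of Mest was −0.00, and the difference between the diets had an unadjusted p of 0.0665.

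Cell division genes were mostly lower in late tissue without passing, with Week 3 as an exception. Over the 34 members the median late minus early difference was −1.16, 29 were negative, and 13 were lower at an unadjusted p under 0.05 (7 to 19 with each array left out), but 0 passed. Against study day, 21 of the 34 declined at an unadjusted p under 0.05, against 3.08% of all genes in that direction, with a median slope of −0.47 per 28 days. That count stayed between 19 and 23 with each array left out. Over all 20680 genes 0 passed for study day, with 1199 at an unadjusted p under 0.05 (5.8%), of which 562 were positive (2.72%), and a smallest adjusted p of 0.0729. With 1 array left out the 1199 ran from 649 without Week 18 to 2570 without Week 12. Under quantile normalization 11 genes passed for study day, all declining.

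Nuf2, a kinetochore protein, lay at −0.58, −1.40, −1.17 and −1.48 on the early arrays and at −1.52, −2.63, −2.28, −4.29, −3.54 and −6.10 from Week 3 to Week 18. The slope of Nuf2 was −0.90 ± 0.126 (SE) per 28 days, that of LOC100048203, described as similar to Nuf2, was −0.81 ± 0.106, and that of 6720460F02Rik was −0.95 ± 0.130, each with an adjusted p of 0.0729. Kif20a, a mitotic kinesin, had −0.71, Cdc2a (Cdk1, the mitotic kinase) −0.84, Cenpf, a kinetochore protein, −0.84 and Ccna2 (cyclin A2) −0.69. The level of Nuf2 at Week 18 lies below −3.82, the lowest level well above background on that dim array, and so is only known to be low. Without Week 18, 19 of the 34 still declined at an unadjusted p under 0.05. The mean level of the list at Week 3 was 0.05, the highest of the 10, on the array with the highest lymphocyte level, and the other late arrays lay between −2.43 and −0.70. In HFC the late arrays, at −2.02 to −0.96, all lay below the early ones, at −0.77 to −0.31.

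**Figure D3:**
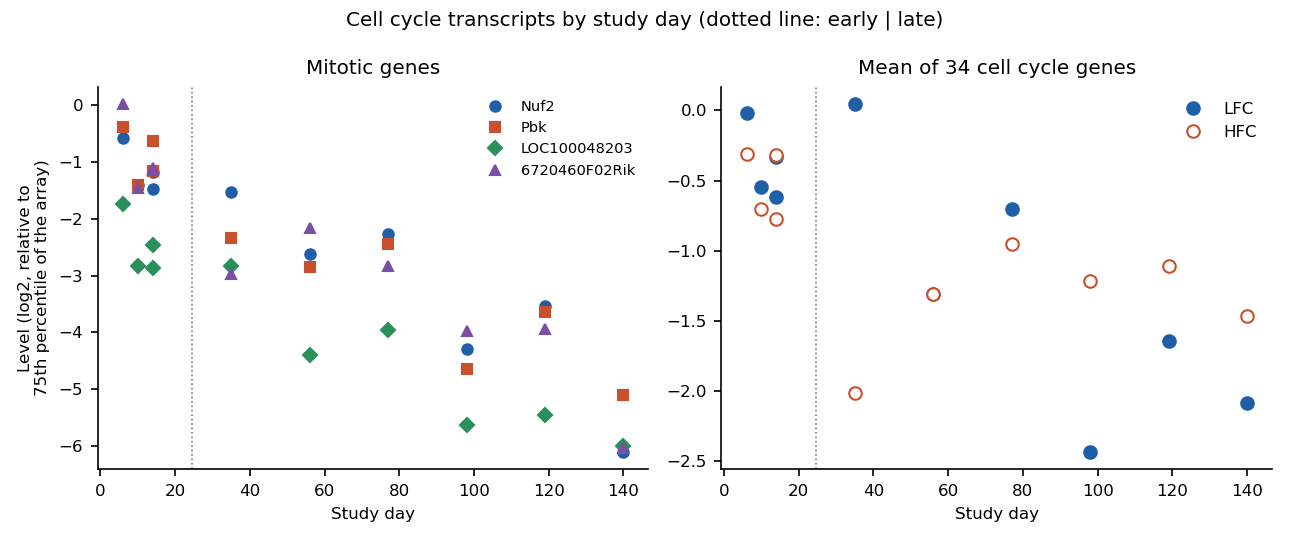
Left, levels of 4 mitotic genes on the 10 LFC arrays against study day; right, the mean level of 34 cell cycle genes on LFC (filled) and HFC (open) arrays, in log2 relative to the 75th percentile of the array. The points of the 4 genes at study day 140 lie below −3.82, the lowest level well above background on that array, and the list mean on LFC arrays runs from 0.05 at study day 35 to −2.43 at study day 98.

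Promoters of mitotic genes often carry the cell cycle homology element, whose core is read as TTTGAA, or TTCAAA on the other strand. Of the 28 list members matched to RefSeq promoters of GRCm38.p6, 8 held it in the 100 bases before the start (28.6%), against 6.76% of 27025 genes, and 9 held it in 250 bases (32.1%), against 18.3%. A match is a description of letters and not a binding site. The 100 bases before the start of 3 members are shown, 5′ to 3′ on the minus strand of each, with the matches in capitals. Cdc20 activates the anaphase-promoting complex, and Top2a is the topoisomerase that untangles replicated DNA.
Cdc20, chr4:118437344-118437443: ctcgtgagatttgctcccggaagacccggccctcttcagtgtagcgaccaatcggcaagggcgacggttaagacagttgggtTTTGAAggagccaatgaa
Cdk1, chr10:69352913-69353012: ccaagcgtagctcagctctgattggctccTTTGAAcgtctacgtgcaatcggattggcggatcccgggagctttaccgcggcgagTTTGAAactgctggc
Top2a, chr11:99024190-99024289: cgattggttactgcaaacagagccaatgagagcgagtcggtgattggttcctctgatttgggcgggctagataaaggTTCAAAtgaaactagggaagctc
The slopes of these 3 genes were −0.60 for Cdc20, −0.84 for Cdk1 and −0.81 for Top2a per 28 days (adjusted p = 0.26, 0.0751 and 0.167).

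Antigen presentation and macrophage genes had mostly positive differences, none of which passed. All 11 MHC class II genes were positive with a median of 1.47, and 7 had an unadjusted p under 0.05 (3 to 8 with each array left out, and 2 without Week 3 and Week 9, the arrays with the lymphocyte signal). H2-DMb1, which loads peptides onto class II molecules, lay between −4.18 and 0.37 early and between 1.17 and 4.58 late (difference 3.48, adjusted p = 0.399). H2-Ab1, a class II beta chain, had a difference of 1.53 (adjusted p = 0.793). The mean level of this list was 3.21 at Week 3 and 1.97 at Week 9, and between 0.07 and 1.04 on the other late arrays, against −1.22 to 0.14 on the early arrays, so the groups overlapped at Week 12. Of 25 macrophage genes, 22 were positive with a median of 0.87, and 8 had an unadjusted p under 0.05 (4 to 9 with each array left out, and 5 without Week 3 and Week 9). The mean level of the macrophage list was between 1.61 and 1.74 at Weeks 3, 6, 9 and 15, while Week 12 (0.14) and Week 18 (0.16) lay within the early range of 0.08 to 0.61. Trem2, a lipid-sensing receptor, lay between −0.74 and 0.06 early and between 0.55 and 1.64 late (difference 1.47, adjusted p = 0.201). Retnla, a marker of alternatively activated macrophages, lay between 3.36 and 4.95 early and between 5.06 and 6.04 late (difference 1.54, adjusted p = 0.288). Cd68 had a difference of 0.65 (unadjusted p = 0.21) and the chemokine Ccl2 0.52 (unadjusted p = 0.728).

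**Figure D4:**
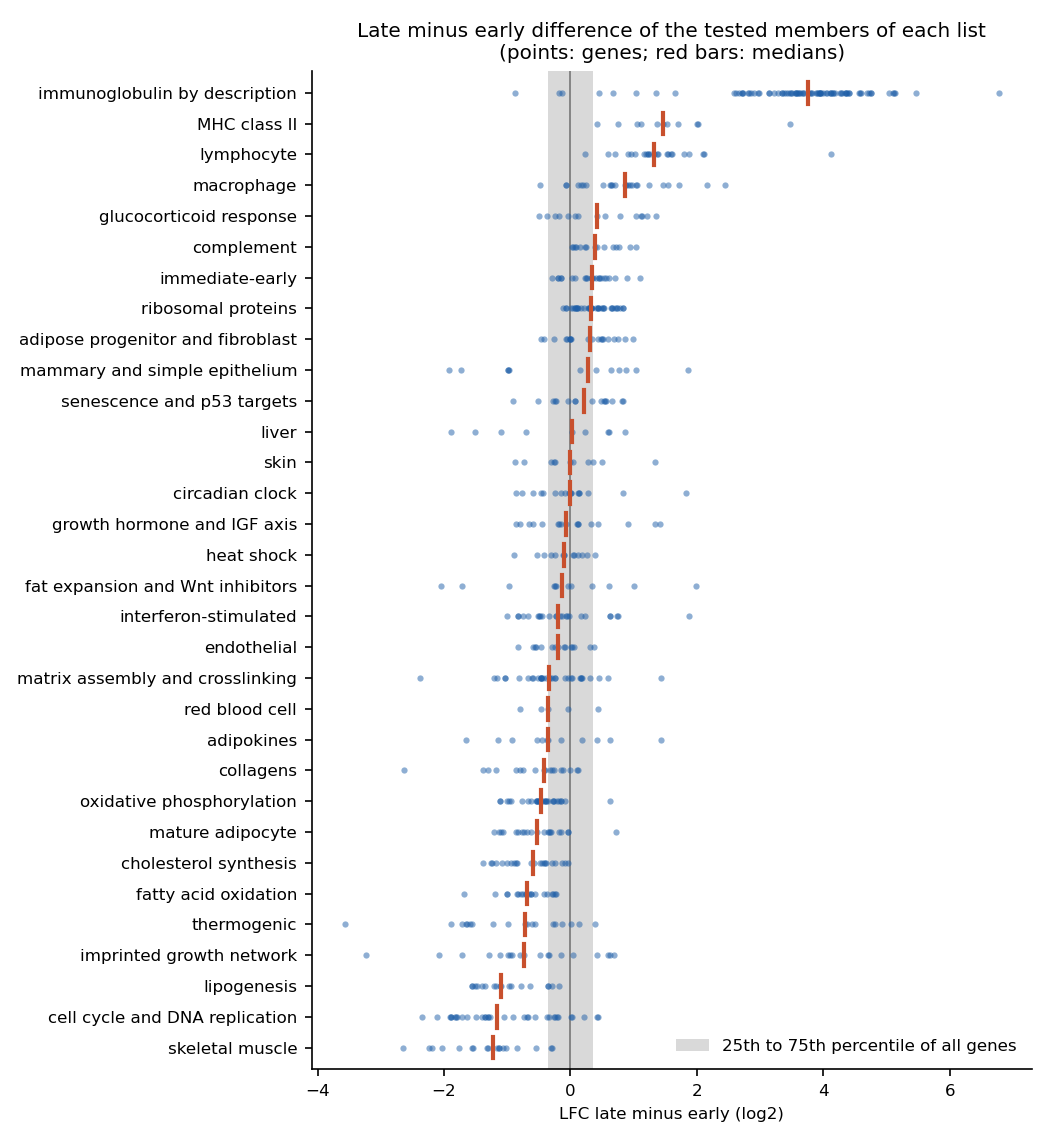
Late minus early log2 differences of the tested members of each gene list in LFC (blue points) with the median of the list (red bars), over the 25th to 75th percentile of all 20680 genes (grey band, −0.36 to 0.36). The immunoglobulin median of 3.76 lies far to the right of every other list, and the cell cycle and skeletal muscle medians lie furthest to the left.

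Fat cell functions showed no change that could be called. None of 21 mature adipocyte, 18 lipogenesis, 22 cholesterol synthesis, 20 fatty acid oxidation or 30 oxidative phosphorylation genes had an unadjusted p under 0.05, although their medians were −0.52, −1.10, −0.60, −0.68 and −0.47. These medians turned positive with Week 0 as the only early array, at 0.28, 0.63, 0.23, 0.34 and 0.43. In all 5 lists the early levels were highest at Day 6 and next at Day 10, as for mature adipocyte genes at 5.12 and 4.12, with 3.15 at Day 14 and 3.03 at Week 0. Week 12 was the highest late array in all 5 lists, at 4.28 for lipogenesis against −0.12 to 2.07 on the other late arrays. Of the 24 pairs of an early with a late LFC array, Day 6 and Week 12 had the highest correlation, 0.961. The part of this likeness in the 5 lists was not tested. Without Week 12, 7 of the 22 cholesterol synthesis genes, 4 of 30 oxidative phosphorylation genes, 3 lipogenesis, 3 fatty acid oxidation and 1 mature adipocyte gene were lower at an unadjusted p under 0.05, and the lipogenesis median was −1.59. With any 1 array left out the 5 medians stayed negative, from −1.64 to −0.29 for lipogenesis and from −0.87 to −0.04 for mature adipocyte genes. Fasn, the fatty acid synthase, had a difference of −0.35 ± 0.627 (SE), and Scd1, a desaturase, had a difference of −1.10 ± 0.684 (SE). Adipoq (adiponectin) had a difference of −0.35 ± 0.781 and Lep (leptin) of −0.52 ± 0.972. Ucp1, the uncoupling protein of brown and beige fat, lay at 6.06, 4.44, 1.25 and 0.56 on the early arrays and between −3.91 and 3.08 on the late arrays, so that Day 14 and Week 0 were within the late range (difference −3.57, adjusted p = 0.997). Of 19 thermogenic genes 2 were lower at an unadjusted p under 0.05 (0 to 5 with each array left out, 5 without Week 12, with medians from −1.19 to −0.42), and the median of −0.71 became 0.28 with Week 0 as the only early array. The median of 18 skeletal muscle genes was −1.23 with 3 lower, and without Day 6 it was −0.12 with 0 lower.

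Among the structural genes, 2 of 18 collagens (median −0.41, and 0.01 with array weights, with 0 to 4 lower when each array was left out) and 2 of 33 matrix assembly genes (median −0.34, 1 to 3 lower when each array was left out) were lower at an unadjusted p under 0.05, and 1 matrix gene was higher. Eln, elastin, had a difference of −2.37 and Fbln1, fibulin 1, of 1.43. Col1a1 and Col3a1 had differences of 0.11 ± 0.890 and −0.12 ± 0.592 (SE). Of 12 genes of fat expansion and Wnt inhibition 3 were lower, led by Mest and by Sfrp5, a secreted Wnt inhibitor, whose difference was −2.05 in LFC and 0.46 in HFC (unadjusted p of the difference between the diets 0.0052). Igf1, Igf2 and Dlk1 had differences of −0.17, −0.79 and −0.35, and the proliferation marker Mki67 of −0.56. Complement had 3 of 15 higher (median 0.38, 0 to 4 higher with each array left out, and 0 without Day 14 or Week 9), among them C3 at 1.03. Single members of other lists were past the same limit, which 2.47% of all genes passed upward and 1.9% downward. In the growth hormone axis 1 of 17 genes was higher, among p53 targets 1 of 16, and among skin markers 1 of 11. Among adipokines 1 of 12 genes was lower and among mammary markers 1 of 12. The lists of interferon, progenitor, endothelial, clock, immediate-early, heat shock, glucocorticoid, ribosomal, red blood cell and liver genes had 0 members at an unadjusted p under 0.05, with medians from −0.36 for red blood cells to 0.42 for the glucocorticoid response, which became −0.47 with Week 0 as the only early array. The sign of the median turned under another scaling or background method for the fat expansion, clock, skin, ribosomal and liver lists. With 1 array left out it turned for the interferon, endothelial, clock, immediate-early, heat shock, red blood cell and liver lists, from −0.73 to 0.94 for immediate-early genes. It also turned for the growth hormone, adipokine, fat expansion, p53 target, mammary and skin lists, from −0.53 to 0.57 for mammary markers. Without Week 18, 3 liver genes were lower and 2 progenitor genes higher at an unadjusted p under 0.05.

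The antibody rise was tested for a difference from HFC, with the time point as a block. The HFC arrays were other samples of the same time points, and at 8 of the 10 time points they were scanned on the same day as the LFC array, so scan day was shared by the diets. In HFC 0 of 20925 genes passed (1572 at an unadjusted p under 0.05, 7.51%, with 3.58% higher and 3.93% lower), and 0 of 22446 passed for the difference between the diets (560 unadjusted, 2.49%, with 1.83% more positive in LFC and 0.664% more negative). With 1 HFC array left out the 1572 ran from 816 without Day 10 to 2806 without Week 0. The smallest p for HFC was that of Marco, a scavenger receptor of macrophages, at −4.39 (adjusted p = 0.0754), followed by Slc13a3 and Nrk. For the difference between the diets it was that of Asb14, at 3.11 (adjusted p = 0.0522), followed by 1110012N22Rik and B230317F23Rik. All 3 were well above background on 0 of the 6 late HFC arrays and on at most 2 of the 4 early LFC arrays, so their sizes are approximate. Of the 67 LFC genes 62 were tested in HFC, where all 62 had the same sign (69.5% of all 20221 genes tested in both diets did), 10 had an unadjusted p under 0.05 and 2, Inmt and Gm12387, had groups that did not overlap, against 0.569% of all genes upward and 0.746% downward in HFC. The difference between the diets had an unadjusted p under 0.05 for 7 of the 67. Sult1e1 had a late minus early difference of 6.01 ± 1.73 (SE) in HFC, Inmt of 3.05 ± 0.736, Cxcl13 of 1.89 ± 1.23 and Adamts17 of −1.45 ± 0.573. The difference between the diets had an unadjusted p of 0.0486 for Adamts17 and 0.876, 0.56 and 0.255 for the others in that order.

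The antibody transcripts of early and late HFC arrays overlapped. Igj lay at −2.89, −2.73, 1.83 and −1.57 on the early HFC arrays and at −1.42, 0.19, 1.21, 2.35, 4.35 and 4.64 from Week 3 to Week 18. The early Day 14 array was thus above Weeks 3, 6 and 9, and the highest levels were those of the last 2 time points. That Day 14 array stood apart otherwise, with 84.1% of spots well above background, against 60.2 to 71.2% on the other HFC arrays, and a liver list level of 4.38, against at most 0.77, and the part of this in the antibody levels was not tested. The immunoglobulin median in HFC was −7.17 at Week 3, where it was −1.12 in LFC, and −1.12 at Week 18, where it was −2.86 in LFC. Over the 72 immunoglobulin genes tested in HFC the median difference was 1.82, with 69 positive, 6 at an unadjusted p under 0.05 and 0 with non-overlapping groups. The difference between the diets had an unadjusted p under 0.05 for 6 of the 85 genes and passed for 0, so the rises were not shown to differ in size.

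**Figure D5:**
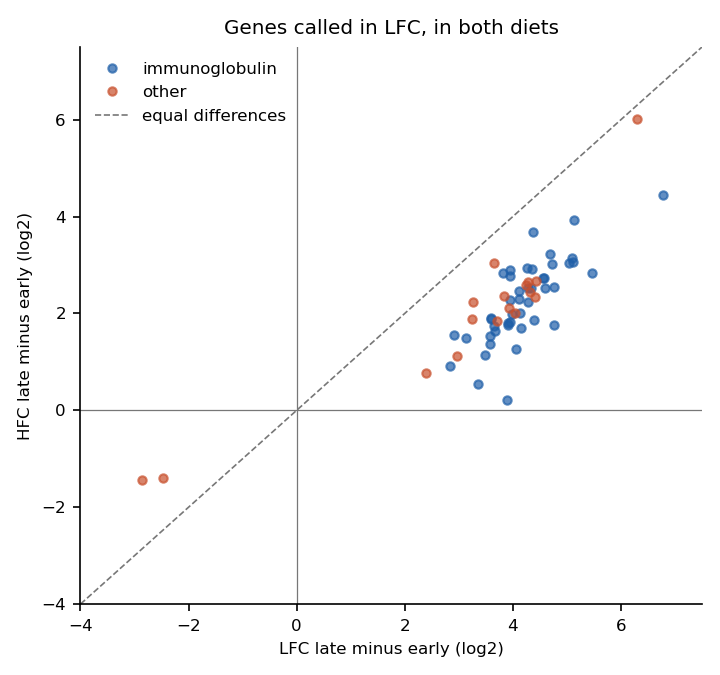
Late minus early log2 differences in LFC (x axis) and HFC (y axis) of the 62 genes called in LFC and tested in HFC, with immunoglobulin genes in blue, the others in red and equal differences on the dashed line. All points share the sign of both axes. The genes were chosen for a large difference in LFC, so points below the line on the right are not evidence that HFC moved less.

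Within the late period, 0 of 21389 genes passed for Weeks 12 to 18 against Weeks 3 to 9, with 1159 at an unadjusted p under 0.05 (5.42%, 1.9% higher and 3.52% lower). Cd52, a surface glycoprotein of lymphocytes and other leukocytes, lay at 6.28, 5.42 and 4.36 at Weeks 3, 6 and 9 and at 1.79, 1.79 and 1.30 at Weeks 12, 15 and 18 (difference −3.73, adjusted p = 0.678). LOC100048500 had a difference of 2.75 and Gm5336 of 3.03. For study day the smallest p among increases was that of Cd209a, a lectin of dendritic cells and macrophages, at 0.76 ± 0.117 (SE) per 28 days (adjusted p = 0.0758), from between −6.47 and −5.09 early to −2.27 at Week 15. LOC100048500 and XM_001004206 followed at 0.73 and 0.45.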

How the data were processed

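Total RNA labelled with Cy3 was hybridised to Agilent 1-colour arrays. The deposited files hold spot intensity values in scanner units from Feature Extraction 10.5.1.1 per the file headers (9.1 in the submitters' processing notes), background-subtracted within the array and not normalized between arrays. The deposited series table holds the authors' log2 ratios to LFC and was not used. Members and lists were chosen with earlier results of these data known.

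Each processed intensity was put on the log2 scale less the array's 75th percentile. Outlier-flagged spots of 43803 were left out, spots of 40628 probes averaged, and the brightest probe taken for each of 29411 names. A gene was tested if well above background on as many arrays as the smallest group. limma 3.58.1 in R 4.3.3 was used with a threshold of 0.05, two-sided, and its code was tested on simulated data. Named were, per direction, the 12 largest changes that passed, were measured on every array of a group and did not overlap, filled up by the smallest p, the 3 smallest p of each other comparison, fixed genes, and up to 4 leading members of a list. Bounds compare means against the lowest signal well above background. The number of arrays limits the precision. Alternatives covered background, scaling, filter, probes, variance model, weights, samples and arrays left out.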

Additional observations from a re-analysis of the deposited data

Results flagged for a closer look

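In groups of 4 or 6 arrays, the gap between the farthest array and its neighbour was set against Dixon's critical value, and about 1 group in 20 would pass by chance. Of 160 groups of named genes, list levels and array measures of intensity and background, 15 passed, 4 of them on Day 6.

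Among early arrays, ENSMUST00000103315 was high at Day 10 (−3.94, others −7.12 to −6.74), Nrk low at Day 14 (−5.05, others −2.95 to −2.73), Lep high at Day 6 (1.31, others −1.87 to −1.48) and Col1a1 low at Day 14 (2.92, others 5.99 to 6.29). The immediate-early mean at Day 6 was −0.588 (others 3.71 to 4.23), the heat shock mean 3.33 (others 4.36 to 4.53) and the mean of senescence and p53 targets −0.674 (others 0.858 to 0.92). The ribosomal mean was high at Day 10 (5.83, others 5.16 to 5.26).

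Among late arrays, Ckap2 and Nrk were low at Week 12 (−5.57 and −7.94), Anln was high at Week 6 (−4.25) and Col1a1 low at Week 18 (2.43, others 5.53 to 6.66). The fatty acid oxidation mean was high at Week 12 (3.92, others 1.21 to 2.14) and the immediate-early mean low there (−0.481, others 2.81 to 4.38). The liver mean was high at Week 18 (1.15, others −2.87 to −2.21).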

How the results depend on the processing

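For LFC late against early, 67 genes passed. Array weights gave 112, a filter on every array 23, and normexp (348 unadjusted), the methods' t-test (860 unadjusted), averaging Day 14 with Week 0 (672) and a joint fit with HFC (1139) each gave 0. With 1 array left out the count ran from 0 to 76. Chosen after seeing the data, Week 0 as the only early array gave 1, and leaving out Week 3 with Week 9, Day 6 with Week 12, or the immunoglobulin genes gave 0 each. The remaining settings gave 51 to 71. In each setting fitted on single probes per gene, those of the 67 that were tested (25 under the every-array filter, 17 without the immunoglobulin genes, 57 to 67 otherwise) kept their sign. Leaving out arrays could not turn a sign, since the groups of all 67 did not overlap. The main count of 0 became 11 for study day under quantile normalization, and 1 for HFC (Marco) under normexp, median scaling, the every-array filter and the trended prior. The median of all genes moved from −0.01 to 0.12 under normexp. The causes were not tested.

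Some differences that had not passed turned sign. Under normexp Anln was 0.0303 and Slc5a11 0.0694. Col1a1 was −0.188 under quantile normalization, −0.18 with Day 14 and Week 0 averaged and −0.479 without Week 3 and Week 9, where Ccl2 was −0.0508. With array weights Col3a1 was 0.249 and Igf1 0.34. Without Day 6 and Week 12 Igf1 was 0.281 and Dlk1 0.0183, and without Week 9 and Week 18 Col3a1 was 0.0848. With Week 0 as the only early array Lep was 0.284, Fasn 0.00522, Adipoq 0.828, Col1a1 −0.547, Col3a1 0.0553, Igf1 0.797 and Ccl2 −1.001. With 1 array left out, Lep ran from −1.17 to 0.232, Adipoq from −0.749 to 0.147, Col1a1 from −0.691 to 0.713, Col3a1 from −0.393 to 0.317, Igf1 from −0.543 to 0.491, Dlk1 from −0.647 to 0.0149 and Ccl2 from −0.266 to 1.36. Of the other values of named genes under alternatives 749 kept their side of the threshold, 199 lost it and 6 gained it.

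Scan day and slide could not be fitted as blocks, since no LFC arrays share either. No paired analysis was possible because early and late LFC arrays share no time point. The diets were compared with the time point as a block. Genes dim at Week 9 and Week 18 have only upper limits there.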
